A study of Mus musculus with 6 samples.

Results

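Collagens are the main structural proteins of the extracellular matrix. The family was taken as every non-control probe whose accession belongs to a gene with a Col symbol made of a number, the letter a and a number, which gave 64 probes for 44 genes among 55681 probes for 21368 named genes. There were 11 fibrillar, 8 basement membrane and 25 other collagen genes. Testing required a mark of well above background, set by the scanner software, on the 3 arrays of either group. This filter passed 36 of the 64 probes, for 30 of the 44 genes, and the brightest tested probe stood for a gene. Each of these 30 carried the mark on all 6 arrays. In the 6 genes with several tested probes, those of Col4a6 alone differed in sign.

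Collagen chains wind around each other into a triple helix with glycine at its core. Fibrillar collagens, such as types I, III and V, assemble into the banded fibrils that give connective tissue its tensile strength. Type IV chains form the sheet-like network of basement membranes, and the multiplexins XV and XVIII lie in the same zone. The other collagens coat or link fibrils (FACIT collagens), form beaded filaments (type VI), anchor epithelium to the matrix beneath it (types VII and XVII) or span cell membranes. In the tongue, fibroblasts between muscle bundles and under the mucosa make most fibrillar collagen, and basal keratinocytes, muscle fibres, nerve sheath cells and vessels all border a basement membrane.

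Tongue RNA came from 6 mice of strain background C57Bl6, all carrying a Dek transgene inducible by doxycycline (DOX), an antibiotic used as a switch; the labels describe the induction as ubiquitous and as specific to squamous cells, and they do not name the promoter that drives it. Of these, 3 received no DOX and 3 received DOX for 2 weeks. No age is given in the labels used here, and mice without the transgene were not analysed here, so an effect of the antibiotic and an effect of the transgene cannot be told apart. The series title mentions a carcinogen, which no sample label names. RNA was measured as single-colour (Cy3) intensity on Agilent mouse arrays, and values are log2 signals after subtraction of each array's 75th percentile.

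Between 56.0% and 58.3% of probes were well above background on an array, and no spot was saturated. Krt4 and Krt13 of tongue epithelium and Acta1 of skeletal muscle were well above background throughout. The single Dek probe read 2.30, 2.10 and 2.20 without DOX and 2.41, 2.41 and 2.27 with DOX; its log2 change of 0.17 ± 0.11 (SE, n = 3 and 3) did not pass (limma, adjusted p = 0.456), so the groups rest on the labels alone, and the sources used here do not say which part of the transcript this probe reads. The 5 salivary gland markers took no common direction and 0 passed. Lpo (log2 change 2.55), Car6 (4.16) and Bpifa2 (6.51) were higher on every DOX array, 3 of the 5 (background 15.3% of named genes). Car6, well above background on 2 arrays without DOX, entered testing through the DOX group, where it is high. It therefore supports nothing in this count. Klk1 was at -4.22 and Muc5b at -0.28, both with overlap. Mean deviations of the 5 from their 6-array means were 0.28, -2.87 and -0.02 on the arrays without DOX, in replicate order. On those with DOX they were 0.84, 1.32 and 0.46, and each merges these directions. The part of gland content in the collagen values was not tested. Because whole tongue was measured, fewer cells of a type and less RNA per cell cannot be told apart.

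Most tested collagens had a lower mean with DOX, while the family's mean overlapped between groups. The mean deviations of the 30 genes from their 6-array means were 0.29, 0.07 and -0.002 on the arrays without DOX, in replicate order, and -0.20, 0.19 and -0.35 on those with DOX. The difference of -0.24 was close to the pooled SD of 0.22. Of 30 tested genes, 22 had a lower mean with DOX and 8 a higher one, where 48.6% of the 15211 named genes tested had a lower mean; this gap was not tested. Their median change was -0.30 on the log2 scale (middle values from -0.47 to 0.02, first to last quartile), beside 0.01 over all named genes tested. With p-values from limma, adjusted over all 30935 tested probes (Benjamini-Hochberg) and read at 0.05, 1 collagen gene fell and 0 rose, where 0.158% of named genes fell, 0.368% rose and 0.526% passed in either direction. By probe, 1 of the 36 tested fell, against 0.123% of all tested probes. At an adjusted p under 0.10 there were 3 collagen genes (background 3.32%) and 4 collagen probes (background 2.82%). At an unadjusted p under 0.05 there were 8 collagen genes, against a background of 20.1%. All 3 DOX values lay below all 3 values without DOX in 6 of the 30 (background 12.4%) and above them in 3 (background 15.3%). By the brightest probe, the 6 were Col3a1, Col4a5, Col4a6, Col8a1, Col16a1 and Col17a1, and the 3 were Col11a2, Col12a1 and Col20a1. Further tested probes of Col4a6 and Col20a1 overlapped between groups, and a further one of Col23a1 was higher on every DOX array. The share was above the background for lower values and below it for higher values, and neither difference was tested.

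By class, the order depended on the summary. Of the 8 tested fibrillar genes 7 had a lower mean, with a median of -0.45 and a range of -1.19 to 0.74. Of the 6 basement membrane genes 5 had a lower mean (median -0.32, range -1.31 to 0.03), and of the 16 other collagens 10 did (median -0.17, range -0.99 to 0.69). Over the arrays of a group, a class's mean had a pooled SD of 0.33 for fibrillar, 0.20 for basement membrane and 0.19 for other collagens. The differences between group means of these were -0.32, -0.51 and -0.10, so by the mean basement membrane genes, not fibrillar ones, were lowest. The basement membrane mean takes Col4a6 from its brightest probe (-1.31), whereas its further tested probe gave 0.08. The order by the mean was not examined with that further probe. With 1 array left out the medians moved by over 1.5 times, to between -0.67 and -0.24 (fibrillar), -0.52 and -0.12 (basement membrane) and -0.28 and -0.09 (other), each from without DOX replicate 2 to without DOX replicate 3. No order of the classes was tested, since the members of a class are not replicates.

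**Figure D1:**
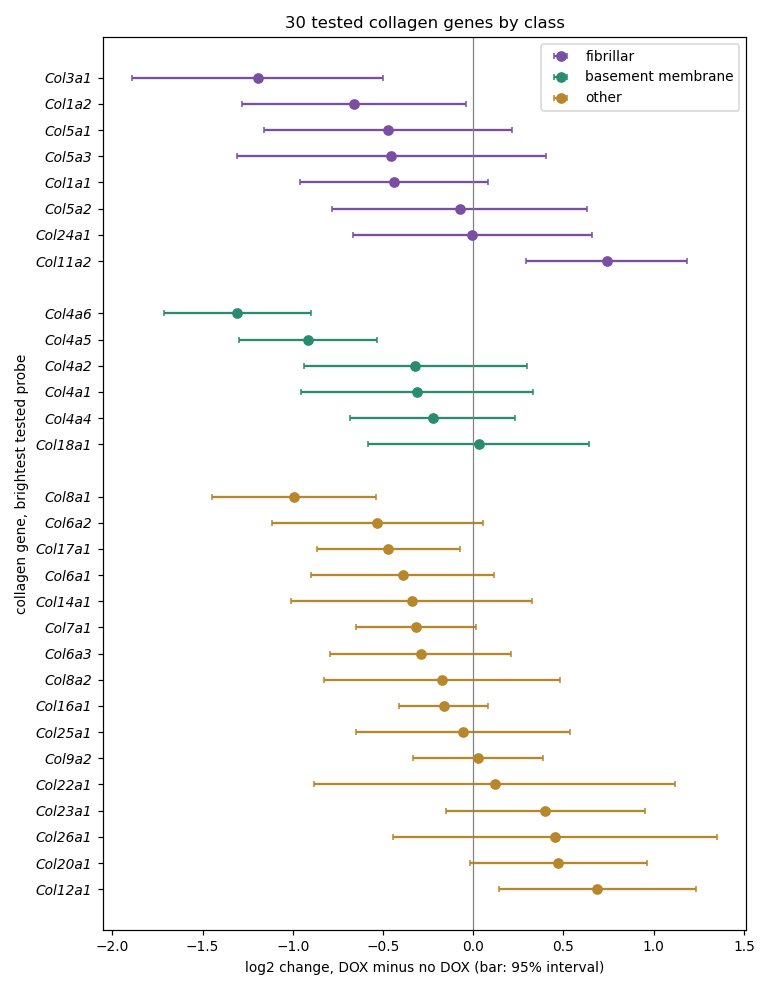
Log2 change (DOX minus no DOX, x axis) of each of the 30 tested collagen genes (y axis), with 95% intervals from the limma fit of 3 against 3 arrays, coloured by class. Col4a6 at -1.31 and Col11a2 at 0.74 are the lowest and highest values, and most intervals cross 0.

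Type IV chains of the basement membrane gave the sole call. Mammals have 3 pairs of type IV genes, each pair lying head to head on 1 chromosome: Col4a1 with Col4a2, which form the network found in nearly all basement membranes, Col4a3 with Col4a4, and Col4a5 with Col4a6. The alpha 5 and alpha 6 chains build a network typical of basement membranes under stratified epithelium and around smooth muscle. Col4a6 fell with DOX. Its brightest probe (A_52_P516409) read -0.70, -0.48 and -0.22 without DOX and -1.85, -1.93 and -1.54 with DOX. Every DOX array lay below every array without DOX. The fall was 2.48-fold (log2 -1.31 ± 0.17, SE, n = 3 and 3, adjusted p = 0.0451 by limma), and the 95% interval of the DOX over no DOX ratio ran from 0.305 to 0.536.

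A further Col4a6 probe for the same transcript accession (A_52_P447196) did not share this change. It read -2.26, -2.32 and -2.38 without DOX and -2.27, -2.14 and -2.31 with DOX, with overlapping groups and a log2 change of 0.08 ± 0.10 (adjusted p = 0.724). Where in the transcript each probe lies is not stated in the files. The call on the brighter probe did not hold when any 1 of the 6 arrays was left out (adjusted p from 0.0568 without DOX replicate 3 to 0.167 without no DOX replicate 2), while its log2 change stayed between -1.43 and -1.18. Quantile normalization and testing without the filter on dim probes ended it too (adjusted p = 0.0531 and 0.132). With normexp, a model-based background correction that draws dim signals together, the change was -0.81 and still passed (adjusted p = 0.0395).

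Its neighbour Col4a5 was also lower on every DOX array. The Col4a5 probe read -0.94, -1.14 and -1.27 without DOX and -2.18, -1.75 and -2.16 with DOX. The log2 change of -0.91 ± 0.16 was 1.89-fold lower and did not pass (adjusted p = 0.0777); normexp gave -0.52, and with array weights the gene passed (adjusted p = 0.0490). The promoter windows of both genes are shown because they are the pair with the largest differences in this class. The windows, from RefSeq on GRCm38.p6 at chrX:141474027-141474326 on the minus strand (Col4a6) and chrX:141475169-141475468 on the plus strand (Col4a5), run from 250 bases before to 50 bases after the start site and are written 5′ to 3′ on the gene's own strand, and the 2 start sites lie 1343 bases apart. Capitals mark matches on either strand to CCAAT (the CCAAT box), to GGGCGG (the GC box) and to TATAAA (the TATA box).
Col4a6: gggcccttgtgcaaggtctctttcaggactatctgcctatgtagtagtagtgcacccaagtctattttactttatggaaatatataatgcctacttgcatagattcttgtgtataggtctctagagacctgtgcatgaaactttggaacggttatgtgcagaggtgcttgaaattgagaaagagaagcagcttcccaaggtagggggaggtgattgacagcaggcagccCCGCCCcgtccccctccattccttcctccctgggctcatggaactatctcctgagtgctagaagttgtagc
Col4a5: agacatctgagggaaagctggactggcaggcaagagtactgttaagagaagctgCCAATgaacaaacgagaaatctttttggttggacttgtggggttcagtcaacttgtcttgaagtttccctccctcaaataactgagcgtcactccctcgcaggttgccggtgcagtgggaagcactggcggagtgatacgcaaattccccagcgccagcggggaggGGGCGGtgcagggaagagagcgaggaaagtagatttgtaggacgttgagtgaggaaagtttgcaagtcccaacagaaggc

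The Col4a6 window held 1 GGGCGG and no CCAAT, and the Col4a5 window 1 of each; neither held TATAAA. The GC content was 48.3% with 3 CpG in the Col4a6 window and 52.7% with 11 CpG in that of Col4a5, where the median of all 32851 windows was 52.7% and 7 CpG. Among all windows, 35.7% held GGGCGG, 37.4% held CCAAT and 13.6% held TATAAA. Of the 38 windows found for 35 of the 44 collagen genes, 23, 13 and 5 did.

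The ubiquitous pair Col4a1 and Col4a2 overlapped between groups. Col4a1, read by a probe printed in 10 spots, was at 1.19, 1.13 and 0.56 without DOX and 0.67, 1.08 and 0.20 with DOX. Col4a2 was at 1.14, 0.86 and 0.47 without DOX and 0.54, 0.90 and 0.07 with DOX. In both genes no DOX replicate 1 was highest and DOX replicate 3 lowest, and DOX replicate 2 lay above no DOX replicate 3. The log2 changes of -0.31 ± 0.27 and -0.32 ± 0.26 did not pass (adjusted p = 0.586 and 0.557). They ranged from -0.53 to -0.09 and from -0.52 to -0.10 with 1 array left out, lowest without DOX replicate 2 and highest without DOX replicate 3. The windows of this pair, at chr8:11312777-11313076 on the minus strand (Col4a1) and chr8:11312555-11312854 on the plus strand (Col4a2), are shown for contrast with the X-linked pair. Their start sites lie 21 bases apart, and the windows share 78 bases.
Col4a1: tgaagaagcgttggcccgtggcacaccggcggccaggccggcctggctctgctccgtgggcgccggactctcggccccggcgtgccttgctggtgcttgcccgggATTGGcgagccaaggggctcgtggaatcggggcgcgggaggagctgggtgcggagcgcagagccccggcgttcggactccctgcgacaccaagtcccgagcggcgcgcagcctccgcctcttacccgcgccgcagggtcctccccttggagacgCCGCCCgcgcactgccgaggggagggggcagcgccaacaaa
Col4a2: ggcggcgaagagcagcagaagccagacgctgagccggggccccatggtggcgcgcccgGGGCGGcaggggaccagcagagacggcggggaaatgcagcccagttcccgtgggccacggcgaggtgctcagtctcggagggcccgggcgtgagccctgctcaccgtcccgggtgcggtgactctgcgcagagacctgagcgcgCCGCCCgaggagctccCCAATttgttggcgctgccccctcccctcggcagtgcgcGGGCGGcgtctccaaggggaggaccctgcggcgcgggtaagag

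These windows were rich in GC (74.0% and 73.7%) and in CpG (37 and 33), and GGGCGG was found 1 time and 3 times, with 1 CCAAT in each. Set against Col4a1 on the same array, Col4a6 differed by -0.996 on the log2 scale (exact two-sided permutation p = 0.2, n = 3 and 3), with DOX replicate 3 inside the range without DOX. Col4a5 set against Col4a2 differed by -0.59, with no overlap (exact permutation p = 0.1, the smallest that 3 against 3 can give). These 2 comparisons and the one for Col3a1 below were chosen after the values were seen. Adjusted over the 3 the exact permutation p-values were 0.2, 0.15 and 0.15, which does not account for that choice.

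Of the remaining basement membrane genes, Col4a4, a chain of the kidney and cochlear network, was at -2.38, -2.40 and -2.88 without DOX and -2.90, -2.50 and -2.94 with DOX (change -0.22 ± 0.19), and its partner Col4a3 was well above background on 0 arrays. Col18a1, whose C-terminal fragment is endostatin, read 1.85, 1.79 and 2.10 without DOX and 2.13, 2.32 and 1.37 with DOX, with DOX replicates 2 and 3 at the extremes. Its change of 0.03 ± 0.26 had a 95% interval of -0.58 to 0.64, and a further Col18a1 probe gave 0.06. Col15a1, found at muscle and capillary basement membranes, was not tested: its brightest probe read -3.31, -3.86 and -4.64 without DOX and -4.72, -5.04 and -5.49 with DOX and cleared background on 2 arrays, both without DOX.

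**Figure D2:**
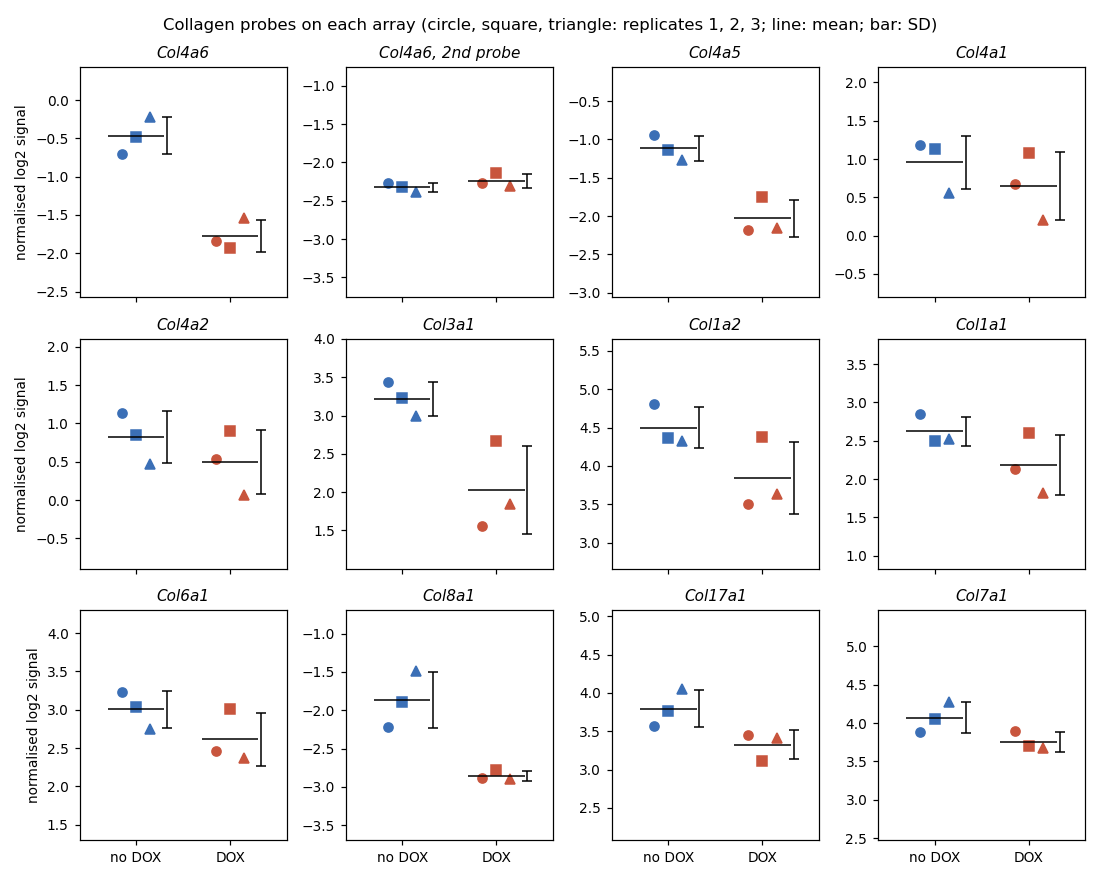
Normalised log2 signal (y axis, a span of 3 units in every panel) of 12 collagen probes on the 3 arrays without DOX (blue) and the 3 with DOX (red), with group mean and SD. Col4a6, Col4a5, Col3a1, Col8a1 and Col17a1 show no overlap between groups, whereas the further Col4a6 probe and Col4a1, Col4a2, Col1a1, Col1a2, Col6a1 and Col7a1 overlap.

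Among fibrillar collagens the largest difference was in Col3a1, the type III chain that is abundant in reticular and healing tissue. Col3a1 read 3.44, 3.23 and 2.99 without DOX and 1.56, 2.67 and 1.85 with DOX. DOX replicates 1 and 3 were well below every array without DOX, and DOX replicate 2 was closer to them. The mean was 2.29-fold lower (log2 -1.19 ± 0.29), and the change did not pass (adjusted p = 0.122). Relative to Col1a1 on the same array it differed by -0.76 (exact permutation p = 0.1, n = 3 and 3, no overlap).

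The type I chains, which together form the main fibrils of skin, tendon and submucosa, overlapped between groups. Col1a1 read 2.84, 2.50 and 2.52 without DOX and 2.13, 2.60 and 1.81 with DOX. Col1a2 read 4.81, 4.36 and 4.33 without DOX and 3.51, 4.38 and 3.64 with DOX. In each, DOX replicate 2 lay within the range of the arrays without DOX and the other DOX arrays lay below it. The log2 changes of -0.44 ± 0.22 and -0.66 ± 0.26 did not pass (adjusted p = 0.331 and 0.244).

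Type V chains, which set fibril diameter, had their highest value of each group on no DOX replicate 1 and DOX replicate 2. Col5a1 read 0.48, 0.27 and -0.27 without DOX and -0.46, 0.21 and -0.68 with DOX while Col5a2 read -2.09, -2.76 and -2.70 without DOX and -2.92, -2.01 and -2.85 with DOX. Their changes were -0.47 ± 0.29 and -0.08 ± 0.29, and that of Col5a3 was -0.45 ± 0.36; none passed. The exception to the lower means was Col11a2, a chain of cartilage fibrils. Col11a2 read -3.96, -3.35 and -3.48 without DOX and -2.68, -2.90 and -3.00 with DOX, so all DOX values were higher. Its change of 0.74 ± 0.19 did not pass (adjusted p = 0.129) and was 0.21 with normexp. Col24a1 was at -0.01 ± 0.28. Col2a1 and Col11a1, the other chains of cartilage fibrils, cleared background on 0 arrays, and Col27a1 did on 1 array without and 2 with DOX.

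The order of arrays recurred across the family. No DOX replicate 1 was the highest array without DOX in 21 of 30 collagen genes, against 30.6% of all named genes tested. DOX replicate 2 was the highest DOX array in 23 of 30, against 35.3%, and DOX replicate 3 the lowest in 19, against 36.3%. The arrays of no DOX replicate 1 and DOX replicate 2 both lie in column 1 of the slide. The part of slide position in this order was not tested. Mean deviations of the 8 fibrillar genes from their 6-array means were 0.41, 0.18 and -0.11 on the arrays without DOX, in replicate order, and -0.34, 0.29 and -0.43 on those with DOX. Those of the 6 basement membrane genes were 0.35, 0.29 and 0.12 on the arrays without DOX, in replicate order, and -0.27, 0.01 and -0.50 on those with DOX. By these means DOX replicate 2 sat among the arrays without DOX for fibrillar genes and below them for basement membrane genes. Gene by gene, it lay below them in Col4a5 and Col4a6 alone. It was within their range in Col4a1, Col4a2 and Col4a4 and above it in Col18a1. For the 16 other collagens the means were 0.21, -0.06 and 0.00 on the arrays without DOX, in replicate order, and -0.10, 0.20 and -0.26 on those with DOX, with the groups interleaved.

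**Figure D3:**
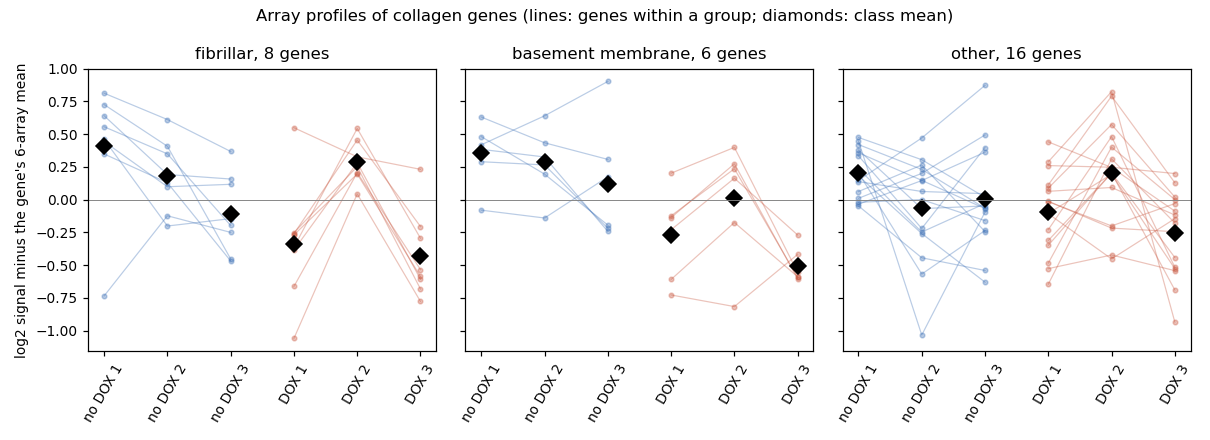
Log2 signal of each tested collagen gene minus its own 6-array mean (y axis) on each array (x axis), by class; a line joins the values of 1 gene within a group and has no order in it, and diamonds are class means. No DOX replicate 1 and DOX replicate 2 are the high arrays of their groups in all 3 classes, and DOX replicate 3 is the lowest array overall.

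Stromal markers varied between arrays in a similar order. The mean deviations of 9 tested fibroblast markers (9 of 9 listed) were 0.14, 0.11 and -0.07 on the arrays without DOX, in replicate order, and -0.20, 0.28 and -0.27 on those with DOX, so no DOX replicate 1 and DOX replicate 2 were the high arrays there too. Of these 9 markers 7 had a lower mean with DOX and 0 passed; Thy1 was at -0.74 ± 0.18, Pdgfra at -0.03 ± 0.22 and Dcn at 0.14 ± 0.17. The 7 endothelial markers had means of 0.20, 0.15 and -0.22 on the arrays without DOX, in replicate order, and -0.09, 0.21 and -0.25 on those with DOX, and 3 of 7 had a lower mean, with 0 passing. The 4 adipocyte markers had means of 0.03, 0.13 and -0.19 without DOX and -0.26, 0.40 and -0.12 with DOX. DOX replicate 2 was also the highest DOX array for skeletal muscle (0.31), smooth muscle and pericyte (0.33) and Schwann cell markers (0.22). It was not for basal or suprabasal keratinocyte markers. The part of stromal cell content in the collagen values was not tested.

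Col17a1 and Col7a1, collagens of the epithelial border, followed another order. Col4a6 was also highest on no DOX replicate 3. Col4a5 instead had the highest value of each group on no DOX replicate 1 and DOX replicate 2. Col17a1, a hemidesmosome collagen that spans the basal keratinocyte membrane, read 3.57, 3.76 and 4.05 without DOX and 3.45, 3.11 and 3.41 with DOX. Col7a1, which forms anchoring fibrils beneath the epithelium, read 3.88, 4.06 and 4.28 without DOX and 3.90, 3.70 and 3.67 with DOX. In both, no DOX replicate 3 was highest, and the DOX arrays lay below all arrays without DOX in Col17a1 but not in Col7a1. The changes of -0.47 ± 0.17 and -0.32 ± 0.14 did not pass (adjusted p = 0.210 and 0.287). Of the 6 basal keratinocyte markers 4 had a lower mean with DOX and 0 passed, with mean deviations of -0.03, -0.02 and 0.27 on the arrays without DOX, in replicate order, and 0.11, -0.15 and -0.17 on those with DOX. Itga6 was at -0.49 ± 0.13 and Krt15 at -0.46 ± 0.19, both without overlap, as was Trp63 at -0.15 ± 0.11 (3 of 6, background 12.4%), whereas Krt5 was at 0.06 ± 0.15 and Krt14 at 0.43 ± 0.35. Their part in the values of Col4a5, Col4a6, Col7a1 and Col17a1 was not tested.

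**Figure D4:**
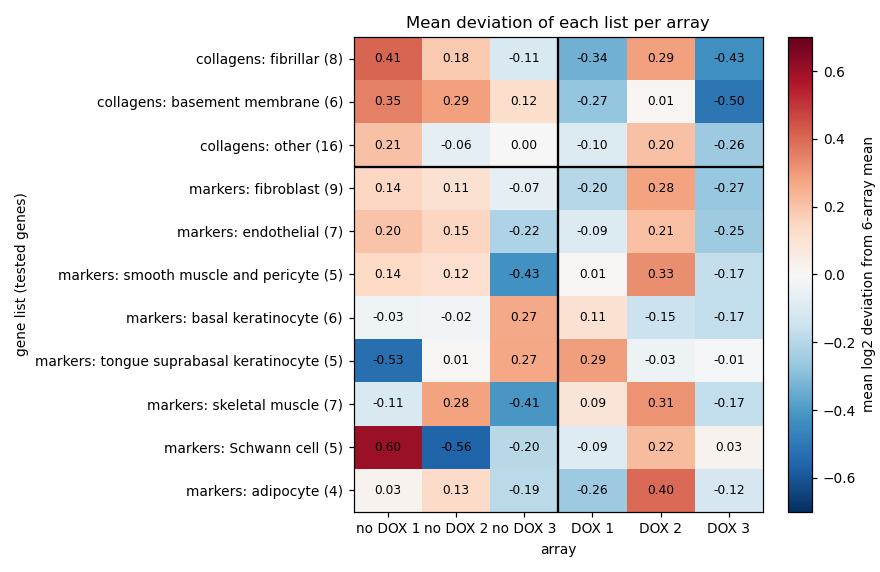
Mean log2 deviation from the 6-array mean, per array (columns), for the 3 collagen classes and 8 lists of cell type markers (rows, number of tested genes in brackets); red is above and blue below the mean. The 3 collagen classes and the fibroblast, endothelial and adipocyte markers are positive on no DOX replicate 1 and DOX replicate 2. They are negative on DOX replicates 1 and 3. Basal keratinocyte markers peak at 0.27 on no DOX replicate 3.

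Of the 16 other collagens, Col8a1 had the lowest log2 change. Col8a1, a short-chain collagen of endothelium and injured vessels, read -2.21, -1.89 and -1.49 without DOX and -2.89, -2.78 and -2.90 with DOX. The 3 DOX arrays lay close together and below all others. The mean was 1.99-fold lower (log2 -0.99 ± 0.19, adjusted p = 0.0861) and did not pass, and normexp gave -0.45. Its partner chain Col8a2 was at -0.18 ± 0.27, and Col10a1, the growth plate collagen, cleared background on 0 arrays.

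The 3 main type VI chains, which form microfibrils around cells and muscle fibres, followed the fibrillar order. Col6a1 read 3.23, 3.04 and 2.74 without DOX and 2.46, 3.01 and 2.37 with DOX, and Col6a2 read 0.74, 0.57 and 0.28 without DOX and -0.05, 0.47 and -0.43 with DOX. Col6a3 read 1.25, 1.04 and 0.83 without DOX and 0.79, 1.09 and 0.37 with DOX. In all 3, DOX replicate 2 was within the range without DOX and DOX replicate 3 was lowest. The changes of -0.39 ± 0.21, -0.53 ± 0.24 and -0.29 ± 0.21 did not pass (adjusted p = 0.373, 0.301 and 0.504). Col6a4, Col6a5 and Col28a1 cleared background on 0 arrays, and Col6a6 did on 2 arrays without and 1 with DOX.

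FACIT collagens, which sit on the surface of fibrils, were divided. Col12a1, found in tendon, muscle connective tissue and healing wounds, read -3.70, -4.10 and -4.20 without DOX and -3.54, -2.87 and -3.53 with DOX, all DOX values being higher. Its change of 0.69 ± 0.23 did not pass (adjusted p = 0.192) and was 0.13 with normexp. Col14a1, its close relative, read 1.16, 0.60 and 1.22 without DOX and 0.18, 1.14 and 0.65 with DOX, with overlap. The Col14a1 change was -0.34 ± 0.28 (-0.58 to -0.10 with 1 array left out, lowest without DOX replicate 2 and highest without DOX replicate 1). A further Col14a1 probe gave -0.09 ± 0.21. Col20a1 was at -0.34, -0.78 and -1.16 without DOX and -0.27, -0.28 and -0.33 with DOX. This change of 0.47 ± 0.20 did not pass (limma, adjusted p = 0.280). A further Col20a1 probe gave 0.48, with overlap between groups. Col16a1 was at -0.16 ± 0.10 and its further tested probe at -0.31 ± 0.11. Both were lower on every DOX array and neither passed. Col9a2 was at 0.03 ± 0.15. Col22a1, a collagen of the muscle-tendon junction, was at 0.12 ± 0.42, with its 3 DOX values spread from -2.30 to -0.54. Col9a3 and Col19a1 cleared background on 0 arrays, and Col9a1 on 1 array.

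Of the transmembrane collagens besides Col17a1, Col23a1 had a brightest probe at 0.40 ± 0.23 and a further probe at 0.76 ± 0.16 (limma, adjusted p = 0.0991), neither of which passed. Its brightest probe overlapped between groups, and that further probe was higher on every DOX array. Col25a1 was at -0.06 ± 0.25, and Col13a1, which is enriched at neuromuscular junctions, cleared background on 0 arrays. The unclassified Col26a1 was at 0.45 ± 0.37. In all, 14 of the 44 genes had no tested probe, and 10 of these cleared background on none of the 6 arrays. These 10 include Col2a1, Col10a1, Col11a1 and Col9a3, all known from cartilage. Of the same types as the last 2, Col11a2 and Col9a2 cleared background on all 6 arrays and Col9a1 on 1. The cartilage markers Matn1 and Hapln1 cleared it on none, and Acan on 1 array of each group. The other 2 genes of that list, Comp and Sox9, cleared it on all 6 arrays (changes 0.10 ± 0.26 and -0.09 ± 0.31).

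The genes that make, cross-link and bind collagen showed no common direction. Over 6 lists of such genes, 68 were tested, of which 35 had a lower and 33 a higher mean (background 48.6% lower), 1 fell and 0 rose (background 0.158% and 0.368%). The groups did not overlap in 7 with lower and 5 with higher DOX values (background 12.4% and 15.3%). Loxl4 is among the 7 and is the 1 that fell. It entered testing through the group without DOX, where it is high, so neither count can rest on it. The 22 genes of chain modification and folding had a median of 0.07; Fkbp10, a collagen prolyl isomerase, was at -0.36 ± 0.10, P4ha2, a prolyl hydroxylase subunit, at 0.36 ± 0.11 and Plod2, a lysyl hydroxylase, at -0.52 ± 0.18, with none of the 22 passing. Propeptide processing genes (6 tested of 8) had a median of -0.06, with the N-proteinase gene Adamts2 at -0.34 ± 0.22, the enhancer gene Pcolce at -0.30 ± 0.25 and the C-proteinase gene Bmp1 at -0.09 ± 0.12, and 0 passed.

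The single call of these lists was in the cross-linking list and depended on the filter. Loxl4, a lysyl oxidase relative, read -3.61, -3.80 and -3.94 without DOX and -4.91, -4.75 and -5.17 with DOX and was well above background on the 3 arrays without DOX and on 0 with DOX. It thus entered testing through the group where it is high, is not tested with the filter on all 6 arrays, and is given as a value that supports nothing about the list. The fitted log2 change of -1.16 (limma, adjusted p = 0.0447) rests on DOX signals that were not well above background. With the dimmest signal called above background on each DOX array in their place, Loxl4 was 1.89-fold lower with DOX. This bound holds for the main processing alone. With normexp Loxl4 no longer passed (log2 -0.15, adjusted p = 0.300), and leaving out any 1 array ended the call too (adjusted p from 0.0693 to 0.167). Pxdn, the peroxidase that makes sulfilimine bonds in type IV networks, was at -0.61 ± 0.24 and Loxl2 at -0.47 ± 0.21; neither passed, and the other 3 members lay between -0.14 and 0.22.

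Fibril-associated matrix genes (15 tested) had a median of -0.09 and 0 passed, with fibrillin Fbn1 at -0.75 ± 0.24, fibronectin Fn1 at -0.55 ± 0.20 and Sparc, a collagen chaperone of the matrix, at -0.31 ± 0.17. Fn1 was lower on every DOX array, 1 of 15 without overlap beside a background of 12.4%. Of 8 tested collagen receptors and uptake genes (of 10), 4 had a lower and 4 a higher mean and 0 passed. The receptor kinase gene Ddr1 was at -0.49 ± 0.12, the chondrocyte integrin gene Itga10 at 0.53 ± 0.15 and the inhibitory receptor gene Lair1 at -0.36 ± 0.13. On the TGF-beta side (11 tested) the median was 0.03 and 0 passed. Ccn2, a matrix gene induced by TGF-beta and by YAP, read 2.22, 2.14 and 1.89 without DOX and 2.82, 3.14 and 2.79 with DOX and was at 0.84 ± 0.15 (adjusted p = 0.0777), higher on all 3 DOX arrays; with normexp it passed (adjusted p = 0.0422). Smad4 was at -0.25 ± 0.11 and Smad2 at -0.13 ± 0.11.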

How the data were processed

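RNA of 6 tongues was hybridised by the submitters as Cy3-labelled cRNA, per the labels' protocols. Each deposited array file gives spot intensity on a linear scale; the submitters' processing notes name Agilent Feature Extraction 11.5.1.1, and its processed signal is background-subtracted per the file headers. The deposited value table is this signal multiplied by an array factor of 3.70 to 3.99, also linear, whose origin the sources used here do not state. Medians of its columns were 102.5, 94.2 and 92.7 without DOX and 90.01, 97.5 and 93.7 with DOX. The arrays share 1 slide and 1 scan day. On the slide, the arrays without DOX and DOX replicate 1 lie in row 1, and DOX replicates 2 and 3 in row 2. The groups thus follow slide position. No DOX replicate 1 and DOX replicate 2 share column 1, and no DOX replicate 2 and DOX replicate 3 share column 2. No DOX replicate 3 lies in column 3 and DOX replicate 1 in column 4. The part of slide row and column in the values was not tested. The labels describe mice by group, so p-values measure the spread between these samples.

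Outlier spots (146 to 195 per array) were left out; none was a collagen spot. Log2 processed signals of a probe's spots were averaged, and the array's 75th percentile was subtracted. Accessions were named through a RefSeq table of GRCm38.p6 (28331 probes matched 1 symbol, 27350 none). Promoter windows were matched by symbol, since the array annotation uses another build. All 30935 tested probes entered limma 3.58.1 in R 4.3.3 (lmFit, eBayes, two-sided, Benjamini-Hochberg, threshold 0.05), and ± after a change is its standard error. On simulated arrays of this comparison over 30935 probes, the fit recovered 0% of changes of 0.5 on the log2 scale, 46.5% of 1 and 97.0% of 2.

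The members and gene lists were chosen with earlier results of these data known. Genes named in full were every collagen past the threshold, the 4 with the smallest p in each class, the extremes of each class and 16 set members (among them types I, III to VII, XII, XIV, XV, XVII and XVIII); the remaining members are given for completeness, after their values were seen. In each pathway list the called genes and the 3 with the smallest p were named, and the Ctgf entry counts as Ccn2. Alternatives covered scaling, background correction, the deposited table, the dim-probe filter, eBayes settings, array weights, the replicate block, the probe rule, the threshold, the class definition and each array left out. Normexp, with an offset of 50, used the median signal because the mean signal is not among the columns used here.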

Additional observations from a re-analysis of the deposited data

How the results depend on the processing

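The call on Col4a6, and with it the counts of collagen probes and genes called (1 each), was lost with quantile normalization (0, adjusted p = 0.0531), with no filter on dim probes (0, adjusted p = 0.132) and with each array left out (0 to 0). Averaging a gene's probes also gave 0 collagen genes, at -0.61 for Col4a6. With array weights 2 passed, Col4a5 joining at an adjusted p of 0.0490, and a threshold of 0.10 gave 3 genes and 4 probes. The replicate numbers did not pair the mice (correlations of same-numbered deviations -0.11, -0.01 and 0.01), and with a replicate block 0 collagen probes, 0 collagen genes and 0 supporting genes passed. The count of supporting genes was 1; it was 0 with no filter on dim probes, with the filter on all 6 arrays (where Loxl4 is not tested), with the eBayes trend and with each array left out (0 to 0), and 2 at a threshold of 0.10; with normexp the 1 was Ccn2 in place of Loxl4.

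The class medians stayed below 0 in every alternative. When 1 array was left out they ran from -0.67 to -0.24 for fibrillar, -0.52 to -0.12 for basement membrane and -0.28 to -0.09 for other collagens. Of 21 named collagens, 12 moved by over 1.5 times with 1 array left out (Col1a1, Col4a1, Col4a2, Col4a4, Col5a1, Col5a2, Col6a1, Col6a2, Col6a3, Col14a1, Col18a1 and Col20a1); none of these had passed. Among the 21 named collagens and 18 named pathway genes, the sign changed in 3 genes near 0, each time with 1 array left out. These were Col18a1 (-0.16 to 0.32), Col5a2 (-0.37 to 0.13) and Bmp1 (-0.14 to 0.000264). The remaining members given in the text, such as Col24a1, Col22a1, Col9a2 and Col25a1, were not part of this check. The number of arrays limits every value, and signals near background, such as those of Col12a1 and Col11a2, shrink with normexp.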
